A study of Mus musculus with 6 samples.

Results

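S100a8 and S100a9, which together form calprotectin, belong to the S100 family, and 10 genes of this family were followed in mouse tracheal mesenchyme before and after airway injury. The members were S100a1, S100a4, S100a6, S100a8, S100a9, S100a10, S100a11, S100a13, S100a14 and S100a16. Every probe set that the platform annotation gives to exactly 1 of these genes was taken, which left 13 probe sets of 9 genes out of 45037 probe sets and 18193 genes in all. S100a11 has no such probe set and is given no value here. The samples were 3 control and 3 at 48 h post injury (48 hpi), each a pool of tracheal mesenchyme from 4 adult male C57Bl/6 mice. Control mice were labelled as normal. Whether they were also placed in the exposure chamber is not given in the sources used here. Injured mice had inhaled 500 ppm SO2 for 4 h, a gas that kills the luminal cells of the airway epithelium. The epithelium was peeled off after dispase and the remaining mesenchyme was used whole, with no removal of leukocytes stated for it. The unit is log2 expression from robust multi-array analysis (RMA), so a difference of 1 is a doubling.

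The S100 proteins are small calcium-binding proteins with EF-hand motifs that mostly act as dimers inside the cell, where they bind annexins, myosin and other targets. Some also leave the cell and act on receptors such as RAGE (gene Ager) and TLR4. S100A8 and S100A9 are stored in the cytosol of neutrophils and monocytes, bind zinc and manganese away from microbes, and are widely measured as a sign of inflammation. Other members are expressed by fibroblasts, epithelium, cartilage or muscle.

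All 10 members lie on mouse chromosome 3 in the RefSeq annotation of assembly GRCm38.p6. S100a8 and S100a9 are neighbours there among protein-coding genes and lie on opposite strands. S100a1 and S100a13 are neighbours on opposite strands as well, while S100a11 and S100a10 are neighbours farther along the chromosome. The 250 bases before the annotated start of S100a8 and S100a9 are shown here because these were the members that changed most. They are from RefSeq (GRCm38.p6), S100a8 at chr3:90668821-90669070 on the plus strand and S100a9 at chr3:90695722-90695971 on the minus strand, each written from 5′ to 3′. Capitals mark matches to TTNNGNAA, a short form of the motif bound by C/EBP factors of myeloid cells, and to TATAAA, both searched on both strands.

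S100a8: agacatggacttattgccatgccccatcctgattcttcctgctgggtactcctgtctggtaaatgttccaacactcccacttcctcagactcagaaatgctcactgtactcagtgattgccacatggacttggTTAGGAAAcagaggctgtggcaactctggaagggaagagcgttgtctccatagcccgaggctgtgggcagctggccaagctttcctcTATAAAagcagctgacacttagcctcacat
S100a9: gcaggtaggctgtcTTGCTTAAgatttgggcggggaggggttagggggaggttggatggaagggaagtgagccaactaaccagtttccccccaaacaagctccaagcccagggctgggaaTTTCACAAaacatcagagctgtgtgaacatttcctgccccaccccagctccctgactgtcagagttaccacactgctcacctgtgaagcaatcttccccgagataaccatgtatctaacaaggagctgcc

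S100a8 held 1 match to TTNNGNAA, from 117 to 110 bases before the start, and TATAAA from 30 to 25 bases before it. S100a9 held 2 matches to TTNNGNAA and none to TATAAA. Upstream sequence was in the table for 8 of the 10 members, as 9 sequences, and S100a8 and S100a9 were the only ones of these with TTNNGNAA. That motif was present in 36.8% of all 32851 upstream sequences of this length, so its presence is common. TATAAA was present in 12.4% of them, and S100a4 was the other member with it. TGANTCA, the AP-1 motif, was in the sequences of S100a11 and S100a16 and in 6.75% of all. A match of letters says nothing on whether a factor binds there.

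At 48 hpi the calprotectin genes rose, S100a8 19.3-fold and S100a9 17.5-fold, and they were the only 2 of the 9 measured members to pass the test (limma, adjusted p 0.05). Over all genes, 4.97% were called higher and 1.24% lower. No member was called lower. At an unadjusted p under 0.05, 5 members were higher and 2, S100a1 and S100a13, were lower, against 14.6% and 9.29% of all genes. The 7 other members had log2 differences between -0.35 and 0.46, and the median over all 9 was 0.32, against -0.01 over all genes. The 9 measured members thus held large rises in the calprotectin genes and small differences of either sign elsewhere.

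S100a8 read 7.33, 4.38 and 7.01 in control replicates 1, 2 and 3, and 10.68, 9.73 and 11.12 at 48 hpi. All 3 injured samples lay above all 3 controls. Control replicate 2 lay far below the other controls, in the dim range under 5.35, the median of all values. The means were 6.24 ± 1.62 and 10.51 ± 0.71 (SD, n = 3), a log2 fold change of 4.27 ± 0.77 (SE) with adjusted p = 0.0288. The 95% interval of the fold was wide, from 5.53 to 67.1. S100a8 ranked number 6 from the top of the 18193 genes by log2 fold change.

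S100a9 read 6.85, 4.16 and 6.54 in controls and 10.20, 9.13 and 10.61 at 48 hpi. Its samples stood in the same order as those of S100a8 in both groups, and control replicate 2 was again in the dim range. The means were 5.85 ± 1.47 and 9.98 ± 0.76 (SD, n = 3), with a log2 fold change of 4.13 ± 0.72 (SE), adjusted p = 0.0256 and a 95% interval of the fold from 5.45 to 56.5. It ranked number 7. In bulk tissue of this kind, more cells that carry a transcript and more transcript per cell cannot be told apart.

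The pair moved together across arrays. The log2 difference of S100a8 minus S100a9 within an array lay between 0.22 and 0.48 in controls and between 0.47 and 0.59 at 48 hpi, so the groups overlapped, while each gene alone ranged over 2.95 and 2.70 log2 units among controls. Pearson r over the 6 samples was 0.9995, a description of samples that fall into 2 groups. The control SDs of S100a8 and S100a9 were larger than those of 99.97% and 99.96% of genes.

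**Figure D1:**
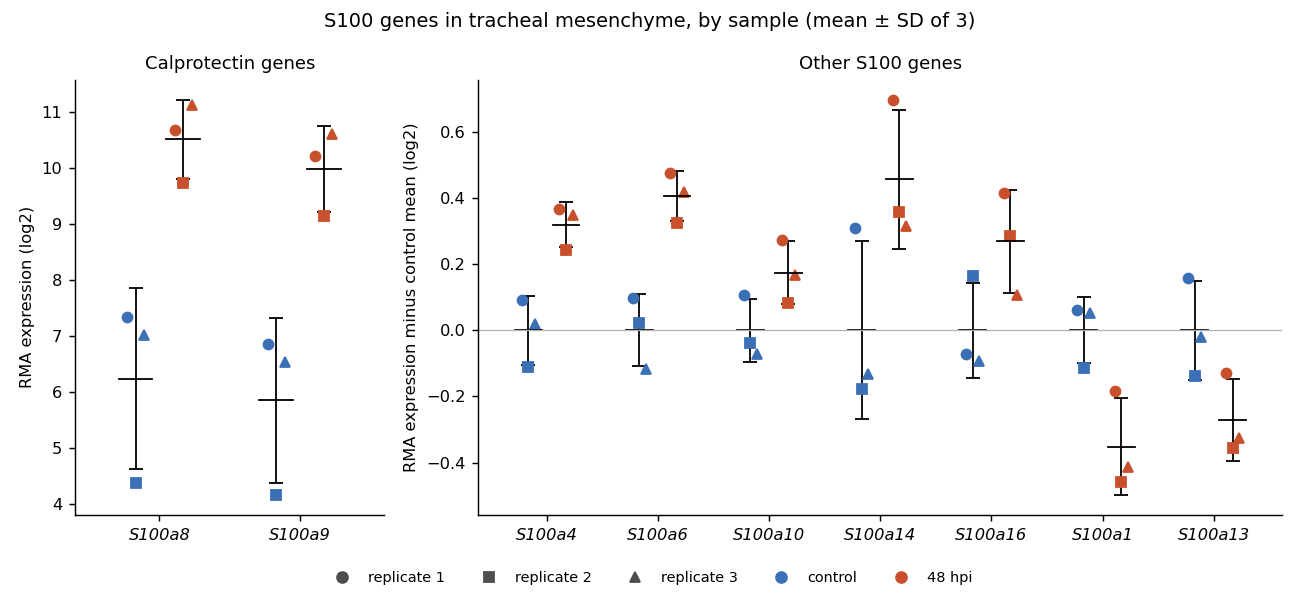
RMA expression (log2) of S100a8 and S100a9 (left) and of the 7 other measured S100 genes after subtraction of each control mean (right), each symbol being a sample and the bars the mean ± SD (n = 3). The calprotectin genes rose by over 4 log2 units, with control replicate 2 (blue square) at 4.38 and 4.16, whereas the other genes stayed within 0.7 of their control mean.

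The size and the call depended on which samples were in the fit. Calls were also fewer in general: fits without 1 sample called from 548 to 1086 probe sets higher, against 1572 with all 6. Without control replicate 2 the rises were smaller, 10.1-fold for S100a8 and 9.77-fold for S100a9, and both still passed (adjusted p = 0.0207 and 0.0255). Without both samples numbered 2 they were 13.2-fold and 13.1-fold and passed. Leaving out replicate 3 of the injured group ended both calls (adjusted p = 0.126 and 0.115). So did leaving out replicate 1 of that group (0.0789 and 0.0733) or control replicate 3 (0.0680 and 0.0653). The call of S100a8 alone was lost without 48 hpi replicate 2 (0.0518). Both were also lost in the ordinary equal-variance model (0.182 and 0.175). Without control replicate 1 both calls were kept, at 28.1-fold and 24.9-fold. Over the fits without 1 sample the log2 fold changes of S100a8 ranged from 3.34 to 4.81 and those of S100a9 from 3.29 to 4.64. Samples sharing a replicate number deviated together over all probe sets, and the number 2 samples were the lowest of both groups for both genes. With the replicate number as a block the standard errors fell to 0.33 and 0.27 and adjusted p to 0.000774 and 0.000384. Differences between samples of the same number were 3.34, 5.35 and 4.11 for S100a8, and 3.35, 4.98 and 4.07 for S100a9.

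**Figure D2:**
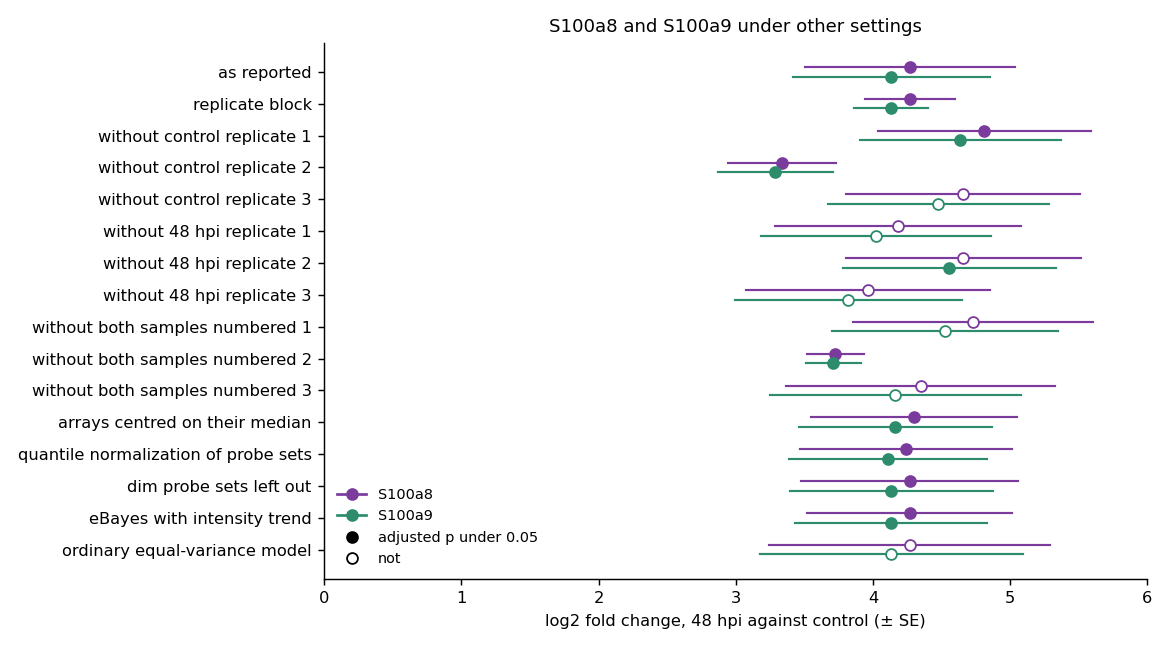
Log2 fold change ± SE of S100a8 and S100a9 (horizontal axis) as reported and under 15 other settings (vertical axis), filled where the adjusted p was under 0.05. All values lay between 3.29 and 4.81, and open symbols mark the fits in which the call was lost.

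Among the other members, S100a6 (calcyclin, a gene of growing cells and fibroblasts whose protein binds Cacybp) read 12.14, 12.07 and 11.93 in controls and 12.52, 12.37 and 12.46 at 48 hpi. The groups did not overlap. The log2 difference of 0.41 ± 0.09 (SE), or 1.33-fold, did not pass (adjusted p = 0.0611), but it passed with the replicate block (0.0354). S100a6 also passed when dim probe sets were removed (0.0452), when the spread followed intensity (0.0303) and when probe sets were averaged per gene (0.0302).

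S100a14, an S100 gene of epithelial cells, was dim, with group means of 5.23 and 5.69 around the median of all values, 5.35. It read 5.54, 5.05 and 5.10 in controls and 5.93, 5.59 and 5.55 at 48 hpi, without overlap, and replicate 1 was the highest of both groups. Its log2 difference was 0.46 ± 0.16 (SE), with adjusted p = 0.191 and 0.0218 with the block. Its 3 differences between samples of the same number, 0.39, 0.53 and 0.45, were closer to each other than the samples of a group.

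S100a4, a gene of fibroblasts and macrophages whose protein binds the non-muscle myosin encoded by Myh9, read 13.05, 12.85 and 12.98 in controls. At 48 hpi it read 13.33, 13.20 and 13.31, again without overlap. The log2 difference was 0.32 ± 0.09 (SE), adjusted p = 0.111, and 0.0565 with the block.

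S100a10, whose protein pairs with annexin A2 at the membrane and does not bind calcium, had 3 probe sets that went different ways. The brightest gave 0.17 ± 0.09 (SE, adjusted p = 0.376) with overlapping groups. The next in brightness read 11.45, 11.65 and 11.53 in controls and 11.92, 11.90 and 11.93 at 48 hpi. This was a difference of 0.37 ± 0.09 (adjusted p = 0.0628, and 0.0456 with the block). The dimmest gave -0.32 ± 0.22 (adjusted p = 0.472), with a 95% interval from -0.83 to 0.19. No direction for S100a10 can be given from these probe sets.

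S100a16, a widely expressed member, read 9.69, 9.93 and 9.67 in controls and 10.18, 10.05 and 9.87 at 48 hpi. Control replicate 2 lay above 48 hpi replicate 3. The log2 difference was 0.27 ± 0.12 (SE), adjusted p = 0.275, and 0.16 ± 0.09 (0.374) in its second probe set.

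The remaining 2 members had negative differences. S100a1, a gene of striated muscle and cartilage, read 11.23, 11.06 and 11.23 in controls and 10.99, 10.71 and 10.76 at 48 hpi, without overlap. Its log2 difference was -0.35 ± 0.11 (SE, adjusted p = 0.130, and 0.0526 with the block), and its other probe set gave -0.26 ± 0.10 (0.226). S100a13, which takes part in the export of FGF1 and IL1α, read 10.84, 10.55 and 10.67 in controls and 10.56, 10.33 and 10.36 at 48 hpi. The highest injured sample just exceeded the lowest control, and the difference was -0.27 ± 0.11 (adjusted p = 0.248). The difference of S100a1 and that of its neighbour S100a13 thus had the same sign and a similar size, and neither passed.

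With the block, 4 members passed as higher (S100a6, S100a8, S100a9 and S100a14) and 0 as lower, against 8.77% and 4.64% of all genes. At an unadjusted p under 0.05 the block gave 6 higher and 2 lower, against 17.2% and 13.6% of all genes. Of the 9 members 5 had all injured samples above all controls and 1, S100a1, had them all below. The same held for 17.2% of all genes above and 13.1% below. The sign of the gene value was kept for all 9 members in the 16 alternatives tried, of which 1 took the mean over probe sets, although the probe sets of S100a10 differed in sign.

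**Figure D3:**
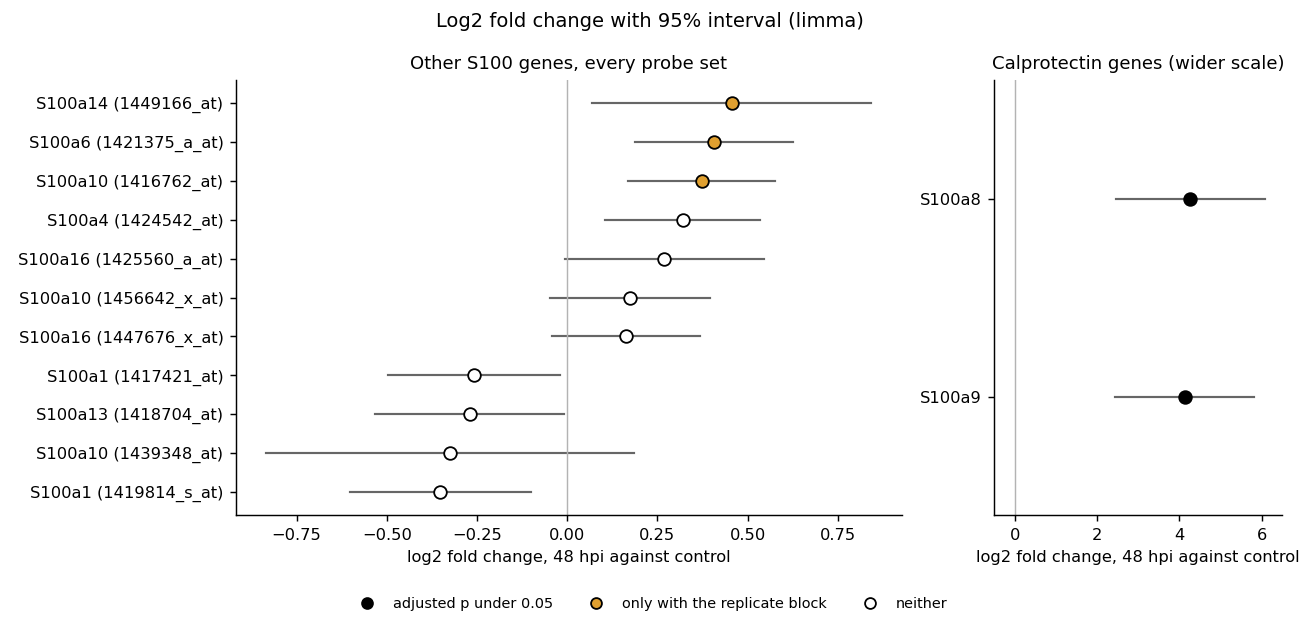
Log2 fold change at 48 hpi against control with the 95% interval for all 13 probe sets, the 11 of the other members on the left and those of the calprotectin genes on a wider scale on the right. Black points passed at adjusted p 0.05, orange points only with the replicate block, and the 3 probe sets of S100a10 lie on both sides of 0.

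The genes whose pattern over the 6 samples was most like S100a8 or S100a9, out of 12053 genes above the dim limit, were found by Pearson r. For S100a8 they were Tpm3 (a tropomyosin, r = 0.998), Arhgap30 (a GTPase-activating protein of blood cells, 0.997), Basp1 (a membrane-bound signaling protein, 0.997), Ikzf1 (the blood cell transcription factor Ikaros, 0.996) and Exoc3 (an exocyst subunit, 0.995). For S100a9 they were Basp1 (0.999), Arhgap30 (0.999), Tpm3 (0.996), Ikzf1 (0.996) and Cd52 (a leukocyte surface protein, 0.996). The points share the group difference and the low control replicate 2. That low sample was not limited to genes of blood cells. Among the defining airway epithelial markers, Cdh1 (8.54, 7.07 and 8.32 in controls) and Krt5 were also lowest in control replicate 2, whereas Epcam was not. Basp1 read 9.04, 8.45 and 8.93 in controls and 9.80, 9.53 and 9.93 at 48 hpi. Its log2 fold change of 0.95 ± 0.18 (SE, adjusted p = 0.0327) was far smaller than those of the calprotectin genes. Arhgap30, Ikzf1 and Cd52 rose as well, by 0.99, 0.76 and 0.98 on the log2 scale, whereas Tpm3 (0.38, adjusted p = 0.0875) and Exoc3 (0.16, 0.335) did not pass. Pearson r was over 0.95 for 298 genes with S100a8 and 346 with S100a9.

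Macrophage markers rose with the calprotectin genes, and neutrophil markers in part. Beside these and the lists below, 4.97% of all genes were called higher and 1.24% lower, or 8.77% and 4.64% with the block. At an unadjusted p under 0.05 the shares were 14.6% and 9.29%. Of 18 measured monocyte and macrophage markers 14 rose and 0 fell, with a median log2 fold change of 1.29. Among the defining ones, Cd68 rose by 2.28, Adgre1 by 1.27 and Csf1r by 0.93. At an unadjusted p under 0.05, 15 were higher and 1 lower. The log2 of the summed level of this list ranged from 13.68 to 13.83 in controls and from 14.04 to 14.42 at 48 hpi, and most of it came from Lyz2, which did not pass (-0.43). Without Lyz2, a choice made after the values were seen, it was 12.06, 11.98 and 12.04 in controls and 13.58, 13.18 and 13.56 at 48 hpi. Of 18 neutrophil markers, counted without the S100 members, 4 rose and 0 fell, while at an unadjusted p under 0.05 9 were higher and 2 lower, and 8 rose with the block. Without 48 hpi replicate 2, 7 rose, and without 48 hpi replicate 1, 1 fell. The 4 that rose were Csf3r, the G-CSF receptor, which rose by 1.12 from a control mean of 4.97 in the dim range, Il1r2 (2.17), Fpr2 (2.16) and Clec4d (3.73). The chemokine receptor Cxcr2 (4.22 and 4.46) and the granule gene Ngp (5.55 and 5.29) had log2 differences of 0.24 and -0.26 that did not pass. Both means were below 5.35 for 8 of the 18 markers. The summed level of the neutrophil list ranged from 13.66 to 14.13 in controls and from 12.92 to 13.81 at 48 hpi. It was carried by Ltf, which airway glands also express, and Pglyrp1. Without these genes, a choice made after the values were seen, it was 9.04, 9.08 and 9.12 in controls and 10.45, 10.12 and 10.75 at 48 hpi. The part of these cell types in the calprotectin rise was not tested.

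**Figure D4:**
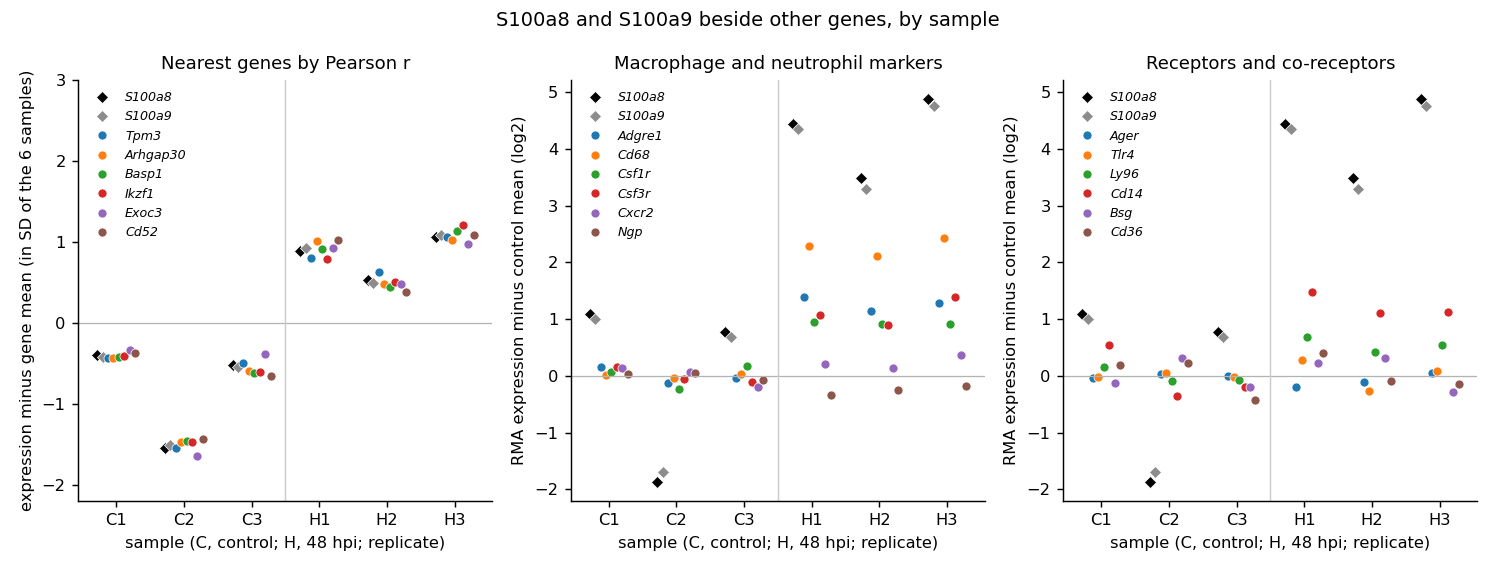
Each sample (horizontal axis) for S100a8 and S100a9 (diamonds) and other genes (circles): on the left the 6 genes most like them, in SD units around each gene's mean, and in the middle and on the right markers and receptors as log2 expression minus the control mean. The 6 nearest genes share the low control replicate 2, whereas the macrophage marker Cd68 sits near 0 in all controls and over 2 log2 units higher at 48 hpi.

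On the receptor side, 2 of 6 receptors and co-receptors of extracellular S100 proteins rose and 0 fell. Cd14, a co-receptor of TLR4, read 8.29, 7.40 and 7.55 in controls and 9.22, 8.85 and 8.87 at 48 hpi, a log2 fold change of 1.24 ± 0.24 (SE, adjusted p = 0.0348). Ly96, which encodes the MD-2 subunit of the TLR4 complex, rose by 0.55 ± 0.11 (adjusted p = 0.0382). The receptors themselves had small differences, 0.03 ± 0.14 for Tlr4 and -0.08 ± 0.09 for Ager (SE, adjusted p = 0.937 and 0.675), as did Bsg (0.08) and Cd36 (0.05). The median of the list was 0.07. The 2 calls were kept without control replicate 1, and the count was 0 when any other single sample was left out.

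Of 13 measured partners of S100 proteins inside the cell, 0 rose and 0 fell in limma, with a median of 0.03. At an unadjusted p under 0.05, 5 were higher and 2 lower. With the block 2 rose, the S100A4 partner Myh9 (0.45, adjusted p = 0.0334) and Anxa1 (0.40, 0.0475), the partner of S100A11. Fgf1 fell with the block by 0.58 (0.0140). Over all genes, 8.77% were called higher and 4.64% lower with the block. Anxa2, the partner of S100A10, differed by 0.31 ± 0.11 (SE, adjusted p = 0.180) and Cacybp, the partner of S100A6, by 0.28 ± 0.10 (0.179).

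Of 5 measured C/EBP and related factors, Spi1, the myeloid factor PU.1, rose by 1.13 ± 0.13 (SE, adjusted p = 0.00470). The factors that bind the C/EBP motif did not pass, at 0.53 ± 0.28 for Cebpb (adjusted p = 0.357), 0.03 for Cebpd and 0.13 for Cebpa. Stat3 (0.50) passed with the block (0.0265, against 0.0526 without). Of 9 genes that bind or move metals in host defence, 2 rose, the haemoglobin-binding Hp by 1.92 ± 0.30 and the phagosome metal transporter Slc11a1 by 1.37 ± 0.14 (SE). The iron-withholding Lcn2 (log2 difference 1.32) and the zinc-binding Mt2 (2.15-fold) passed with the block (adjusted p = 0.0196 and 0.0303), whereas Ltf (log2 difference -0.75) passed in neither fit. The count of metal genes that rose was 1 without control replicate 1 or 3 or 48 hpi replicate 1 or 3, and 1 fell without 48 hpi replicate 1. Without 48 hpi replicate 2, 2 of the factors rose.

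Outside the members, 4 further S100 genes and S100pbp, which encodes a protein that binds an S100 protein, were measured, and 1 fell. S100b, a gene of glia and cartilage, read 11.34, 11.33 and 11.26 in controls and 10.87, 10.74 and 10.61 at 48 hpi. It fell by 0.57 ± 0.10 (SE) on the log2 scale (adjusted p = 0.0228), and by 0.62 in its other probe set (0.0285). The call of S100b was kept without 48 hpi replicate 1 and lost when any other single sample was left out. S100g, an intracellular calcium buffer, read 4.05, 4.47 and 4.33 in controls and 5.63, 4.90 and 6.20 at 48 hpi, in the dim range for the controls. The difference, 2.45-fold with a 95% interval from 1.49 to 4.03, did not pass (adjusted p = 0.0656, and 0.0243 with the block), but it passed without 48 hpi replicate 2. S100a3 (0.11), S100a5 (0.05) and S100pbp (-0.01) passed in neither fit.

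Markers of the cells that could carry the other members are given beside them. Of 16 chondrocyte markers, cells that also express S100a1 and S100b, 3 fell (Chad, Hapln1 and Snorc) and 0 rose, with a median of -0.61. With the block 11 fell, whereas without 1 sample the count was from 0 (control replicate 3, 48 hpi replicates 2 and 3) or 1 (control replicates 1 and 2) to 2. The defining Acan (-0.23) and Col2a1 (-0.46) passed in neither fit. The 10 striated muscle markers, another source of S100a1, had 0 calls in both fits, 0 at an unadjusted p under 0.05, and a median of -0.06. Of 6 Schwann cell markers, cells that express S100b, 0 were called and 1, Mbp, fell with the block, while 3 were lower at an unadjusted p under 0.05.

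Of 19 airway epithelial markers, 0 were called in limma, with a median of -0.30. At an unadjusted p under 0.05, 1 was higher and 2 lower. With the block Krt19 rose (0.80, adjusted p = 0.0246) and the secretory genes Scgb1a1 (-2.57, 0.0146) and Scgb3a2 (-2.07, 0.0339) fell. Without 48 hpi replicate 1, 2 fell as well. The log2 of their summed level was 15.25, 14.54 and 14.71 in controls and 14.73, 13.31 and 12.37 at 48 hpi. Most of this sum came from Bpifa1, Scgb1a1 and Scgb3a2, so it says little on the other epithelial markers. Of the 19 markers, 8 had positive log2 differences and 11 negative ones. The sum was highest in replicate 1 of both groups, as was S100a14. Its groups overlapped, with 48 hpi replicate 1 above control replicates 2 and 3. Between samples of the same number the sum was lower at 48 hpi, where S100a14 was higher. Single markers went both ways in this comparison. Krt14, Krt19 and Cldn4 (log2 differences of 0.44, 0.18 and 0.73) were higher for every number, like S100a14. Trp63 (-0.11, -0.14 and -0.74), Bpifa1, Scgb1a1 and Scgb3a2 were lower for every number, and the other markers were mixed. The defining Epcam (means of 7.93 and 7.98) was above the median of all values in both groups. Krt5 and Cdh1 had log2 differences of 0.18 and -0.41 that did not pass. Of 14 fibroblast markers Fbln2 rose and 2, Dpt and Scara5, fell, and the defining Pdgfra was 11.19 in both groups. With the block 3 rose, Col1a1 (0.51) and Thy1 (0.66) with Fbln2, and 4 fell, Pi16 (-0.88) and Fbln1 (-0.74) with the others. The rise was lost without control replicate 2 or 3 or 48 hpi replicate 1 or 2, and from 0 (without control replicate 2 or 3) to 1 fell when 1 sample was left out. Of 8 endothelial markers 3 rose, Cdh5 (0.71), Tie1 (0.65) and Esam (0.48), a count of 0 without control replicate 3 or 48 hpi replicate 1 or 2, and of 1 without control replicate 2 or 48 hpi replicate 3. Of 9 smooth muscle markers 0 were called in either fit or at an unadjusted p under 0.05. The part of these cell types in the differences of S100a1, S100a4, S100a6 and S100a14 was not tested.

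**Figure D5:**
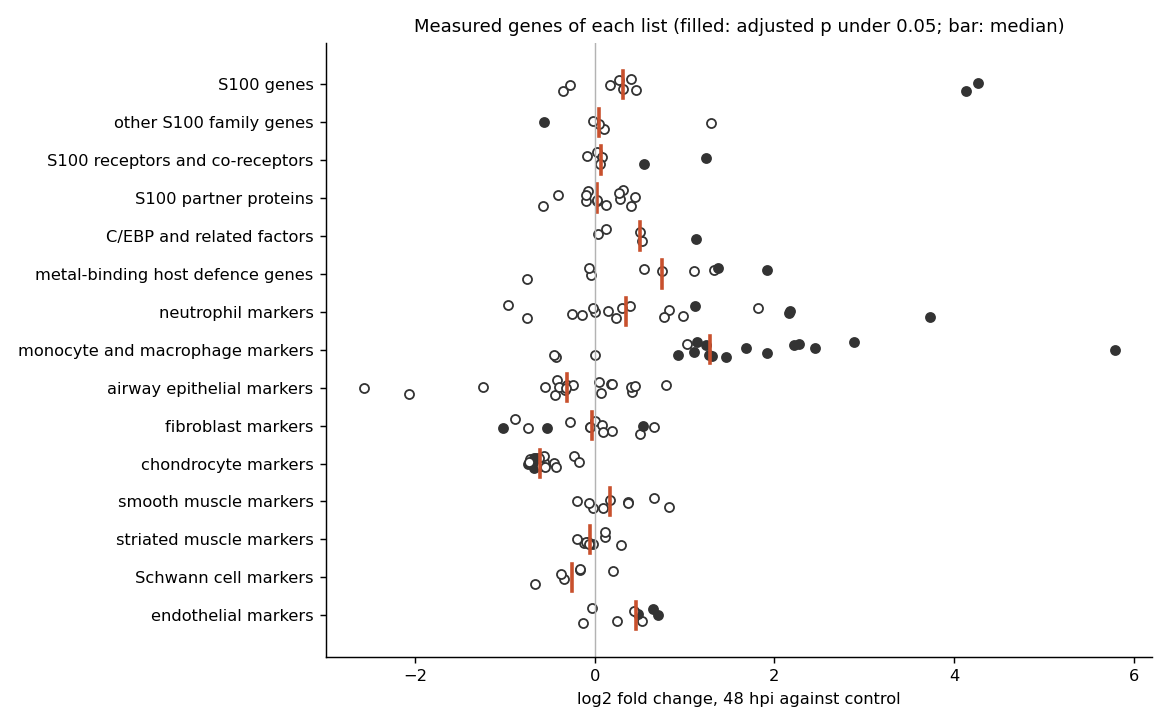
The 9 S100 members and the measured genes of 14 lists (rows) by their log2 difference between 48 hpi and control on the horizontal axis. Each point is a gene, solid if it passed at adjusted p 0.05, and red bars are medians. S100a8 and S100a9 stand at 4.27 and 4.13 apart from the other members, and the macrophage list has the highest median of the lists, 1.29.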

How the data were processed

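RNA of 6 samples was amplified and hybridized to Affymetrix mouse expression arrays, 1 per sample. The authors normalized the arrays by RMA, and the deposited values are log2 expression per probe set. The submitters' notes also name Partek 6.5 and Affymetrix Expression Console 1.1. RMA makes the arrays alike in overall brightness and compresses folds of dim genes. The number of arrays limits the precision, and p-values measure the spread between pools of mice.

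The 45037 probe sets without 64 Affymetrix controls were fitted with limma 3.58.1 in R 4.3.3 (eBayes after lmFit, with group as the only factor, two-sided, Benjamini-Hochberg adjustment over all of them, threshold 0.05). Of these, 34945 had 1 gene symbol, 932 several and 9160 none, and 34741 symbols were matched through Entrez identifiers to RefSeq names of GRCm38.p6. A gene took its probe set with the highest mean. Probe sets ending in _s_at or _x_at may also read other transcripts, which applies to S100a8, S100a1, S100a10 and S100a16. Among the named list genes it applies to Epcam, Clec4d and Myh9. Values below 5.35, the median of all, are called dim.

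The study's methods name an analysis of variance over epithelium and mesenchyme, of which the mesenchyme is analysed here. The members and the 14 lists (155 of 166 genes measured) were chosen with earlier results of these data known. Named genes were all members, genes of the family, receptor, partner, factor and metal lists, and the defining markers. The 5 genes most like S100a8 and S100a9 each were named as well. Other markers that passed in lists with 5 or fewer, and genes that carried a summed level, were chosen after their values were seen. Replicate numbers are shared by the groups, and deviations from the group means correlated at 0.62, 0.36 and 0.34 between samples of the same number, over all probe sets. Between different numbers the values ran from -0.43 to 0.18, the highest for control replicate 3 with 48 hpi replicate 2. Numbers 2 and 3 were thus set apart less clearly than number 1. The labels name no shared day, so this pairing rests on the data. The fit was tested on simulated data. Alternatives were the replicate block, leaving out samples, other scalings, a filter on dim probe sets, other variance models and the mean over probe sets.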

Additional observations from a re-analysis of the deposited data

How the results depend on the processing

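With the replicate block, 4 S100 genes and 5 of their probe sets were called higher, against 2 and 2 without it. The further calls were S100a6, S100a14 and 1 probe set of S100a10. Leaving out 1 sample gave from 0 to 2 called genes and from 0 to 2 called probe sets. Without both samples numbered 1, without both numbered 3 and in the ordinary equal-variance model 0 genes and 0 probe sets were called, where 7, 3 and 5 of the 9 genes had an unadjusted p under 0.05, against 21.5%, 13.4% and 21.2% of all genes. When dim probe sets were removed, and with an intensity trend, 4 probe sets were called, those of S100a8, S100a9 and S100a6 and 1 of S100a10. Called falls stayed at 0 in all 16 alternatives. Over 144 values of members, none changed direction, 126 kept their side of the threshold, 13 lost and 5 gained it. All 13 were of S100a8 or S100a9, which passed in 9 and 10 of the 16 alternatives. Of the 6 fits without 1 sample, S100a8 passed in 2 and S100a9 in 3. Of 448 counts of called list genes, 352 stayed within 1.5 times, 28 rose and 68 fell. The 352 include counts that were 0 as reported and stayed at 0, as many did. They therefore do not measure the stability of counts above 0. With 3 arrays a group, none of the other measured S100 members passed in the fit as reported.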
